A study of Homo sapiens with 12 samples.

Results

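DNA mismatch repair removes bases that were wrongly paired during replication. MutS dimers find the mismatch, MutL dimers are then recruited and nick the new strand, an exonuclease removes the stretch, and the replicative polymerase and a ligase fill and seal the gap. Cells without the pathway accumulate point mutations and changes in the length of short repeats, which is how mismatch repair deficiency is recognised in tumours. Transcripts of 7 genes were followed here: MSH6 and MSH3 (the alternative mismatch-recognising subunits), PMS2, PMS1 and MLH3 (the alternative MutL subunits), EXO1 (the 5′ to 3′ exonuclease) and UNG. UNG is a uracil-DNA glycosylase; it opens base excision repair and is not itself a mismatch repair enzyme. The genes were found as rows of the deposited count table whose symbol equals a listed name. All 7 were among the 13853 genes of the table, each once, and all 7 passed the filter on low counts that kept 13846 genes.

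The cells were H1299, a human non-small cell lung cancer line known to lack p53. The control group (shNT, 3 libraries) carried a control vector and the knockdown group (shGAS41, 3 libraries) was depleted of GAS41, a YEATS-domain reader of acetylated histone H3 encoded by YEATS4. Both groups are described as virally infected and drug-selected cells of the same line, and no second hairpin or rescue was among the samples used here. Library totals lay between 58629147 and 72747010 counts. YEATS4 itself fell from 46.3 ± 1.89 to 1.81 ± 0.179 CPM (reads per 1000000 of the library total after TMM scaling; mean ± SD, n = 3 libraries each), so the labels match the targeted transcript. Of 5 epithelial markers 3 were measured, KRT8 (log2 fold change -0.67) and KRT18 (-0.44), which fell, and KRT7 (1.90), which rose, and KRT19 and CDH1 were not in the tested genes. The mesenchymal markers VIM (0.22) and CDH2 (0.25) rose, and of 4 fibroblast markers only COL1A1 was measured, rising from 0.817 ± 0.211 to 1.69 ± 0.225 CPM. None of the 4 lung lineage, 4 leukocyte and 3 endothelial markers looked for was in the tested genes. Summed over each list, the epithelial markers were at 857 to 877 CPM in control and 601 to 618 CPM in knockdown libraries, the mesenchymal at 2622 to 2725 and 3117 to 3123 CPM, and the fibroblast at 0.574 to 0.951 and 1.47 to 1.92 CPM. The part of these shifts in the results was not tested. Separate cultures are not mentioned in the labels, and the spread behind each p-value is that among these 6 libraries, which could be technical.

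After knockdown 6 of the 7 genes fell and 1, MSH3, rose. The median of the 7 log2 fold changes was -0.39. Over all tested genes 34.5% fell and 33.6% rose at an adjusted p under 0.05, 68.1% in all, and the median was -0.01, so that being called was common in this comparison. EXO1 stood far below the other members at -1.34 and UNG followed at -0.51. PMS2, MLH3 and PMS1 fell by less, and MSH6 fell least, by 0.16 on the log2 scale. Adjusted p-values of single genes, here and later, come from the quasi-likelihood test of edgeR, with Benjamini-Hochberg adjustment over all tested genes.

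**Figure D1:**
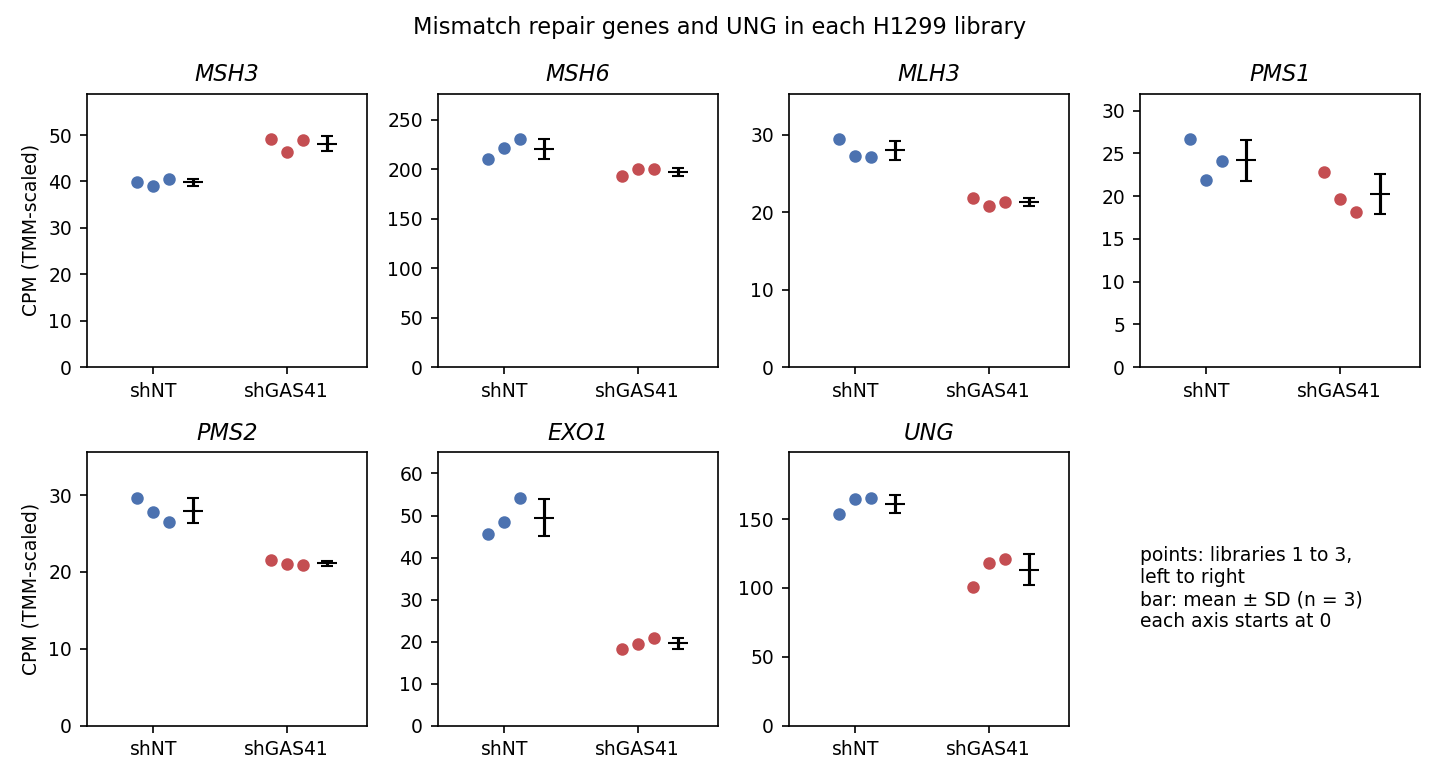
TMM-scaled CPM (vertical axes, each starting at 0) of the 7 genes in the 3 shNT (blue) and 3 shGAS41 (red) libraries, with mean ± SD beside the points. The groups are apart in 6 panels, with MSH3 higher and the other 5 lower after knockdown, and they overlap in the PMS1 panel.

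The MutS subunits went in opposite directions. MSH6 (ENSG00000116062), which recognises single mismatches and small loops, had 210, 221 and 230 CPM in the control libraries and 193, 200 and 200 CPM in the knockdown libraries. Every knockdown library lay below every control library, but the step between the groups was small. The log2 fold change was -0.16 ± 0.05 (SE; adjusted p = 0.0105), with a 95% interval from -0.26 to -0.06. MSH3 (ENSG00000113318), which recognises larger insertion and deletion loops, had 39.8, 39.1 and 40.6 CPM in control and 49.1, 46.2 and 48.9 CPM in knockdown cells. Here all knockdown libraries were above all control libraries. The log2 fold change of MSH3 was 0.27 ± 0.05 (SE; adjusted p = 0.000798), a 1.21-fold rise. In the same library the 2 genes share every scaling factor, so their count ratio shows how they moved relative to each other, though not which of them moved. There were 5.28, 5.66 and 5.68 MSH6 reads per MSH3 read in the control libraries and 3.93, 4.32 and 4.09 in the knockdown libraries. The ratios did not overlap, and their log2 difference was -0.43. The two-sided exact permutation test gave p = 0.1 (adjusted p = 0.2 over the 4 ratios computed), and 0.1 is the smallest p that groups of 3 allow.

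The MutL subunits were all lower after knockdown. PMS2 (ENSG00000122512), the main endonuclease subunit of the pathway, had 29.7, 27.8 and 26.5 CPM in control and 21.5, 21.0 and 20.9 CPM in knockdown cells. MLH3 (ENSG00000119684), the subunit used in meiotic crossing over and also found in somatic cells, had 29.5, 27.3 and 27.2 CPM in control and 21.9, 20.8 and 21.4 CPM in knockdown cells. Both genes were lower in every knockdown library than in any control library. The log2 fold change was -0.40 ± 0.06 (SE; adjusted p = 0.000271) for PMS2 and -0.39 ± 0.06 (SE; adjusted p = 0.000277) for MLH3. PMS1 (ENSG00000064933), whose part in mismatch repair is the least defined, had 26.7, 21.9 and 24.1 CPM in control and 22.8, 19.7 and 18.2 CPM in knockdown cells. Control library 2 was below knockdown library 1, so PMS1 was the only member whose groups overlapped. Among all tested genes 36.7% were lower and 35.6% were higher without overlap. The log2 fold change of PMS1 was -0.26 ± 0.10 (SE; adjusted p = 0.0388). Leaving out control library 1 (adjusted p = 0.148) or 3 (0.0969) ended that call, and so did leaving out knockdown library 2 (0.104) or 3 (0.134). The spread of PMS1 between libraries, 9.94% of the mean in control and 11.7% in knockdown cells, was wider than the 3.09% that counting error gives at its lowest count.

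Ratios among the MutL genes overlapped between the groups. The log2 difference in the PMS2 to MLH3 ratio was -0.01 (control 1.01, 1.02 and 0.973, knockdown 0.982, 1.01 and 0.979). That of PMS2 to PMS1 was -0.14 (control 1.11, 1.27 and 1.10, knockdown 0.941, 1.07 and 1.15). The exact permutation p was 0.8 and 0.4 (adjusted p = 0.8 and 0.533). PMS2 has near-identical copies elsewhere in the genome, and its reads may have been divided among them. Of the copies looked for, 5 were in the table. PMS2P3 (-0.46), PMS2P5 (-0.43), PMS2CL (-0.30) and PMS2P1 (-0.23) fell, and PMS2P4 had a log2 fold change of -0.17 (adjusted p = 0.320). PMS2P1 had 28.9 ± 0.329 CPM in control cells, close to the 28.0 ± 1.61 CPM of PMS2 itself, so the level and the change of PMS2 are uncertain to the extent that reads were shared.

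EXO1 (ENSG00000174371) showed the largest change of the 7. It had 45.6, 48.6 and 54.3 CPM in the control libraries and 18.3, 19.4 and 21.0 CPM in the knockdown libraries. The highest knockdown library was below the lowest control library by a wide gap. The mean went from 49.5 ± 4.39 to 19.6 ± 1.34 CPM (SD, n = 3), a 2.53-fold fall (log2 fold change -1.34 ± 0.08 SE, adjusted p = 2.66e-07). That value was at percentile 1.36 of the fold changes of all tested genes, counted from the strongest fall. UNG (ENSG00000076248), which removes uracil from DNA, had 153, 164 and 166 CPM in control and 100, 118 and 121 CPM in knockdown cells. All 3 knockdown libraries were below the controls, and knockdown library 1 was the lowest. The log2 fold change was -0.51 ± 0.07 (SE; adjusted p = 9.01e-05). UNG is transcribed from 2 starts that give a mitochondrial and a nuclear enzyme, and a count per gene cannot tell them apart. There were 0.297, 0.295 and 0.328 EXO1 reads per UNG read in control and 0.182, 0.165 and 0.173 in knockdown libraries, without overlap. The log2 difference in this ratio was -0.82 (exact permutation p = 0.1, the smallest possible; adjusted p = 0.2).

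**Figure D2:**
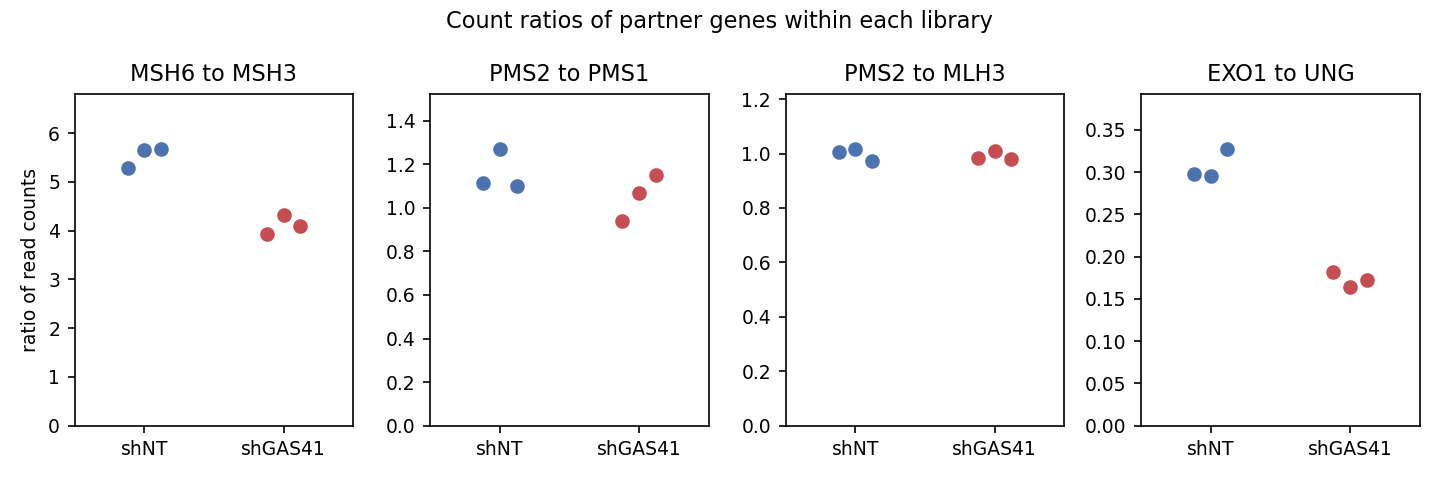
Ratio of read counts within each library (vertical axes, starting at 0) for 4 pairs of genes, with 3 shNT (blue) and 3 shGAS41 (red) libraries each. MSH6 to MSH3 and EXO1 to UNG are lower in every knockdown library, with log2 differences of -0.43 and -0.82, and the 2 ratios among MutL genes overlap between the groups.

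Since EXO1 and UNG are known to be most abundant around S phase, the start regions of the 7 genes were searched for the E2F-type words TTTCCCGC, TTTCGCGC, TTTGCCGC and TTTGGCGC on both strands. E2F factors are the textbook activators of genes of the G1 to S transition. The windows ran from 250 bases before to 50 bases after each RefSeq start (GRCh38.p14, whereas the submitters' build is hg19), and the 7 genes had 13 windows. A word was present in 6 of the 13 windows and in 5 of the 7 genes, against 4.87% of 14075 windows and 6.69% of the 9577 tested genes with a window. The matches are shown with the words in capitals, 5′ to 3′ on the strand of the gene, to set the gene that fell most beside the gene that rose.
EXO1: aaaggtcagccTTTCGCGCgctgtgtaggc
UNG: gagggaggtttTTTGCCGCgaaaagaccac
PMS2: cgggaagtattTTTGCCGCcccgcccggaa
MSH6: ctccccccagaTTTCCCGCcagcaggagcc
MSH3: gcggtcaagTTTGGCGCGAAAttgtggccg
The EXO1 stretch is at chr1:241848197-241848226 on the plus strand, with the word starting at position 5 after the first of 2 starts. The UNG stretch is at chr12:109098098-109098127 (plus strand), at -63 from the second start, and the MSH6 stretch is at chr2:47783137-47783166 (plus strand), at position 4 after the first of 4 starts. The PMS2 stretch is at chr7:6009131-6009160 (minus strand), at -43 from the first start. In MSH3 (chr5:80654536-80654565, plus strand) a word on each strand overlaps the other and spans -107 to -96. So such words were found near the start of MSH3, which rose, and near a start of 4 genes that fell. By window they were in the single window of MSH3, 2 of 2 for PMS2, 1 of 2 each for EXO1 and UNG, and 1 of 4 for MSH6. The 2 PMS2 windows overlap and hold the same word, at -43 from the first start and -100 from the second. That 1 site is therefore counted in both windows. None of the 4 words was found in the windows of MLH3 and PMS1. The same windows were also searched for CCAAT and TTTGAA, which 34.6% and 10.2% of the 14075 windows hold. CCAAT was found for MSH6, PMS1, PMS2 and UNG, and TTTGAA for UNG only. Neither was found for EXO1, MSH3 and MLH3. A match of letters is a description of the sequence and does not show that a factor binds there.

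Genes that start within 1000 bases upstream of a member on the other strand were also read from the fit. PMS2 and AIMP2, a scaffold protein gene of the tRNA synthetase complex, start head to head. AIMP2 had 43.1, 45.2 and 41.9 CPM in control and 44.6, 50.4 and 53.9 CPM in knockdown libraries, with overlap between the groups. Its log2 fold change was 0.19 ± 0.07 (SE; adjusted p = 0.0328), a call that ended without control library 1 (adjusted p = 0.0526) or 3 (0.0930), and without knockdown library 2 (0.0913) or 3 (0.141). PMS1 is head to head with ORMDL1, a regulator of sphingolipid synthesis, which had a log2 fold change of -0.08 (adjusted p = 0.206; 95% interval -0.19 to 0.04).

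The factors that act with these genes were lower almost throughout. Of 19 measured genes of a list of other mismatch repair factors, 17 fell and 2 rose. The median of their log2 fold changes was -0.58, against -0.01 over all tested genes, of which 34.5% fell and 33.6% rose. PCNA, the sliding clamp that links MutS and MutL proteins to the fork, fell from 193 ± 12.2 to 90.9 ± 3.66 CPM (mean ± SD, n = 3). The clamp loader subunit genes RFC3 (-1.46 ± 0.09, SE) and RFC4 (-1.12 ± 0.05) had the largest falls. The list also holds the single-strand binding protein genes, the ligase gene LIG1, the subunits of polymerase delta and HMGB1. The exceptions were POLD4, the smallest subunit of polymerase delta, which rose from 7.86 ± 0.603 to 14.2 ± 0.397 CPM, and SETD2. SETD2 writes the histone H3 lysine 36 trimethylation that MSH6 is known to bind, and rose by a log2 fold change of 0.19 ± 0.05 (adjusted p = 0.0100). The 3 nuclease relatives of EXO1 fell as well. FEN1 had a log2 fold change of -0.85, ERCC5 of -0.57 and GEN1 of -0.55.

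**Figure D3:**
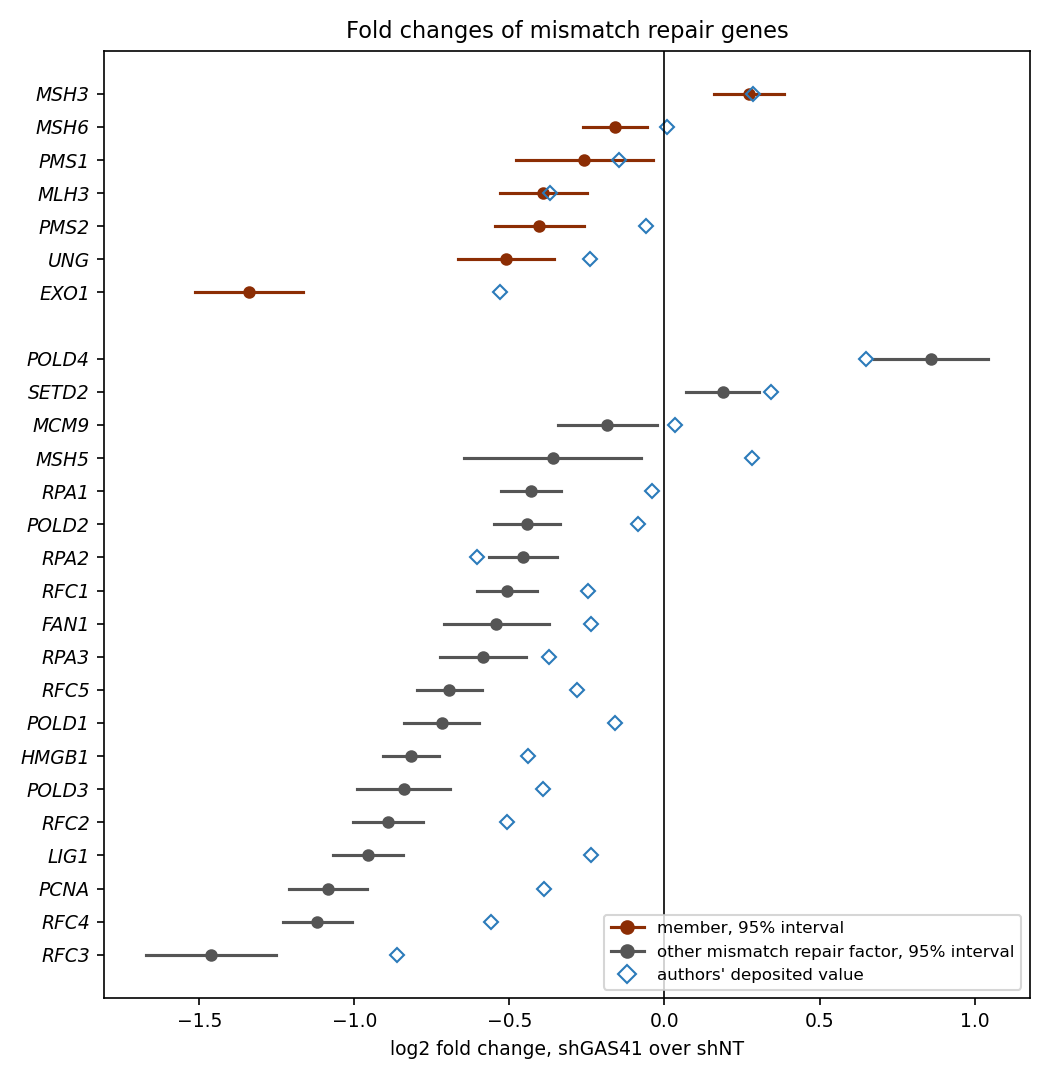
Log2 fold change of shGAS41 over shNT (horizontal axis) for the 7 members (brown) and 19 other mismatch repair factors (grey) with 95% intervals, and the authors' deposited value for each gene (open diamonds). EXO1 at -1.34 lies near PCNA, RFC4 and RFC3, and MSH3 at 0.27 is to the right of 0 with POLD4 and SETD2.

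Many of these factors are made in S phase, and S phase transcripts fell in the same libraries. All 39 measured genes of a list of S phase genes fell, against 34.5% of all tested genes. Their log2 fold changes ran from -1.70 to -0.44, with a median of -1.02 against -0.01 over all tested genes. The summed level of the 39 genes was between 5412 and 5770 CPM in control and between 2713 and 2874 CPM in knockdown libraries. The largest falls in that list were those of E2F8 (-1.70), WDR76 (-1.57) and RRM2 (-1.56). In bulk RNA, fewer cells in S phase and less RNA per cell cannot be told apart. EXO1 and UNG are commonly counted among S phase genes but were not in that list. Both lay inside its range, with UNG (-0.51) near the upper end, and the other 5 members lay above it. Leaving out the factors that are also in the S phase list, 13 of 15 measured mismatch repair factors fell and 2 rose. These shares were 86.7% and 13.3%, against 34.5% and 33.6% of all tested genes, and the median of the 15 was -0.54. The S phase list does not hold every replication gene. Among the 15 are still RFC1, RFC3, RFC4, RFC5, RPA1, RPA3, LIG1, POLD1 and POLD2. This split therefore cannot separate the mismatch repair factors from replication genes. The part of cell cycle composition in the changes of the 7 genes was not tested.

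Of 12 measured genes that produce, prevent or remove uracil in DNA, 7 fell (58.3%, against 34.5% of all tested genes), 3 rose (25%, against 33.6%) and 2 did not pass the test. DUT, which degrades dUTP, fell from 129 ± 0.859 to 78.5 ± 1.50 CPM, and TYMS, the thymidylate synthase gene, fell from 223 ± 9.07 to 111 ± 2.18 CPM. DTYMK, the next enzyme of that route, fell from 100.3 ± 2.85 to 46.9 ± 1.73 CPM. The rises were those of the cytidine deaminase genes APOBEC3G (1.03 ± 0.0702 to 2.58 ± 0.325 CPM), APOBEC3D (3.56 ± 0.579 to 7.67 ± 0.172 CPM) and APOBEC3F (3.45 ± 0.975 to 5.84 ± 0.232 CPM), all from low levels in control cells. APOBEC3C, which had the most reads of the 4 measured APOBEC3 genes, did not pass (42.4 ± 2.11 to 45.5 ± 3.35 CPM, adjusted p = 0.192). The APOBEC3 genes are close copies of each other, so reads may be shared among them. Among other uracil glycosylases, the log2 fold change was -0.53 for MBD4 and -0.34 for SMUG1, both lower, and 0.05 for TDG (adjusted p = 0.645).

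Of 22 measured base excision genes 16 fell (72.7%, against 34.5% of all tested genes) and 2 rose (9.09%, against 33.6%), with a median of -0.35. NEIL2 fell from 30.3 ± 1.11 to 9.62 ± 0.151 CPM and PARP1, the strand break sensor, fell from 216 ± 5.99 to 90.6 ± 0.238 CPM, with NEIL3 at -1.28. Of the rises, NEIL1, at 1.97 ± 0.232 CPM in control cells, passed only narrowly (log2 fold change 0.46, adjusted p = 0.0499), and lost its call in 8 of 13 alternatives. Of 26 nucleotide excision repair genes 14 fell (53.8%), 4 rose (15.4%) and 8 did not pass, with a median of -0.23. DDB1 (-1.06), UVSSA (-0.94) and DDB2 (-0.68) had the largest falls, and ERCC6 (0.71), CUL4B (0.38) and CUL4A (0.30) the largest rises. Of the 3 direct reversal genes, which repair alkylated bases, ALKBH3 (-0.65) and ALKBH2 (-0.46) fell, and MGMT, whose loss is known to make cells depend on mismatch repair for their response to alkylating drugs, had a log2 fold change of 0.03 (adjusted p = 0.765).

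**Figure D4:**
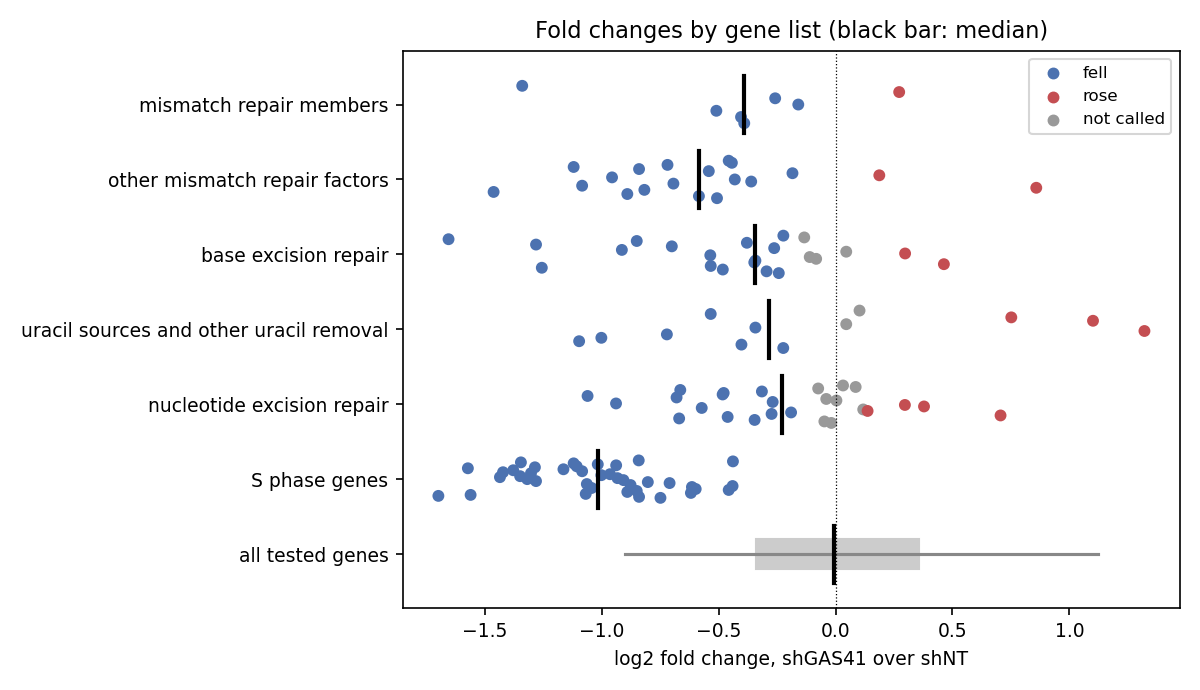
Log2 fold change of shGAS41 over shNT (horizontal axis) for every measured gene of 6 lists, coloured by call, with list medians as black bars; the bottom row gives all tested genes (box: middle 50%, line: middle 90%). The members' median of -0.39 lies between that of base excision repair (-0.35) and that of the other mismatch repair factors (-0.58), and S phase genes are lowest at -1.02.

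The pattern of each member over the 6 libraries was set beside those of 10064 genes with a mean log2 CPM of at least 3, by the Euclidean distance between log2 values centred on the control mean. EXO1 had few close neighbours: 27 genes were within a distance of 0.25, the nearest being AZIN1 (0.10), a regulator of polyamine synthesis, and ATAD5 (0.14), which unloads PCNA. PMS1 had 178 genes that close, with FOXN3 and DNAJC18 nearest. The others had between 596 (UNG) and 1530 (MSH6). The nearest genes were UTP11L and PSME3 to UNG, CNPY2 and CD9 to MSH6, KDELR2 and RPS24 to MSH3, TRIM25 and BRI3BP to MLH3, and RAB32 and EIF2B4 to PMS2. The distance is in absolute log2 units, and few genes fell as far as EXO1, at percentile 1.36 of all tested genes. Its low count therefore need not mark a distinct pattern. Most other members had many genes at a like distance. For all members the names describe the size of the change and little else.

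The authors' deposited table gives smaller changes for most of the members. For EXO1 the authors' deposited table has a log2 value of -0.53 (adjusted p = 0.0272), for MLH3 -0.37 (0.00254) and for UNG -0.24 (0.0282). These 3 are called lower in the authors' deposited table, as are 14.6% of all listed genes; 18.6% are called higher there and 33.2% in either direction. PMS2 (-0.06), PMS1 (-0.15), MSH6 (0.01) and MSH3 (0.285) are not called in the authors' deposited table, with adjusted p-values of 0.424, 0.168, 0.536 and 0.230. The deposited value for EXO1 lies outside the 95% interval of -1.51 to -1.17 computed from the counts beside it, and so do those of UNG, PMS2 and MSH6. Over all listed genes the median in the authors' deposited table is 0.116, against -0.01 over the tested genes in the fit used here. With that offset taken off, the values of UNG (-0.36) and MSH6 (-0.11) are inside their intervals, and those of EXO1 (-0.65) and PMS2 (-0.18) are not. No source used here states the model behind the deposited fold changes, and the cause of the difference was not tested.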

How the data were processed

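The file holds raw counts per Ensembl gene for 6 mRNA libraries, as deposited by the authors. Per the submitters' processing notes, the series used build hg19, the aligners TopHat2 2.0.10 and Bowtie2 2.1.0, the counter HTSeq, MACS 1.4.2 and CASAVA 1.8.2. Which of these served the RNA libraries, the annotation and the use of strand are not given in the sources read for this work. The same deposited table gives the authors' log2 fold change, p-value and adjusted p-value, named after edgeR. The 6 chromatin immunoprecipitation samples were not analysed here. Groups came from sample titles. Counts were fitted with edgeR 4.0.16 (limma 3.58.1, R 4.3.3): TMM scaling, filterByExpr, robust quasi-likelihood test, no block, Benjamini-Hochberg threshold 0.05. The code was tested on simulated data. SE is the log2 fold change divided by the square root of F. Libraries of a group differed by more than sampling noise (chi-square per degree of freedom 4.24 to 28.4). Members and lists were chosen with earlier results of these data known. Named genes were the members, YEATS4, head-to-head neighbours, PMS2 copies, up to 3 largest called rises and falls per list, and the 2 genes nearest to each member; LIG1, HMGB1, MBD4, SMUG1, TDG, MGMT, APOBEC3C and the cell type markers were added. Alternatives were DESeq2 1.42.0, limma-voom, other scalings and filters, a replicate block and leaving out each library. Sequences are from RefSeq (GRCh38.p14); all 7 members matched by symbol. Some results are left out here.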

Additional observations from a re-analysis of the deposited data

How the results depend on the processing

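Over 13 alternatives, MSH3, MSH6, MLH3, PMS2, EXO1 and UNG kept their direction and an adjusted p under 0.05 in all 13. EXO1 ranged from -1.39 to -1.26, UNG from -0.56 to -0.43, MSH3 from 0.25 to 0.30 and MSH6 from -0.19 to -0.12 (highest adjusted p = 0.0450). PMS1 passed in 9 of 13; over the fits that leave out 1 library its log2 fold change ranged from -0.35 to -0.17. The number of base excision repair genes that rose was 1 instead of 2 with library totals only, with limma-voom, with no filter on low counts, and in 5 of the 6 fits that leave out 1 library (range 1 to 2), because NEIL1 lost its call. No ratio changed direction. The median over all genes stayed between -0.03 and 0.00 over the scalings. With the replicate number as a replicate block, 5260 genes fell and 5134 rose, all 7 members kept their calls, and no other count moved by over 1.5 times. The deviations of same-numbered libraries correlated across genes at 0.44, 0.08 and 0.09, so the numbers were not taken as pairs, and libraries 2 and 3 correlated best with the other number. Depth limits little here, since every member had over 1000 counts in each library, and the spread between libraries sets the precision.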
